A study of Mus musculus with 8 samples.

Results

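Carbonic anhydrases are zinc enzymes that interconvert carbon dioxide and bicarbonate. The 6 genes described here, Car1, Car2, Car3, Car5a, Car8 and Car14, were picked out of the 38283 rows of a liver mRNA-seq table by matching their symbols to its Ensembl identifiers, and each symbol matched 1 row. They were chosen by their levels and their differences between groups in these same libraries, so that both are given as a description, and the p values printed beside them describe the fit and support nothing. All 6 had FPKM (a fragment count divided by the length of the transcript and the depth of the library) above 1 in all 8 libraries.

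Livers came from C57BL/6 male mice in which exons 4 and 5 of Rora were flanked by loxP sites. Control mice carried only these alleles (RORα f/f). The others also carried Cre recombinase under the albumin promoter (Alb-cre;RORα f/f, named RORα LKO), used by the study to delete Rora in the liver. From 8 weeks of age the mice were fed a control diet (CD) or a high-fat diet with 60% of its kcal from fat (HFD) for 10 weeks. Each of the 4 groups comprised 4 mice, whose livers were pooled by 2 into 2 libraries, so that the spread within a group is that between 2 pools and the mice in a pool cannot be told apart.

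In liver, carbonic anhydrases work in several compartments. The enzymes of the cytosol set the pH and bicarbonate of the cell, the enzyme of the mitochondrial matrix delivers bicarbonate to carbamoyl phosphate synthetase and pyruvate carboxylase and thereby to the urea cycle and gluconeogenesis, and membrane enzymes turn their active site to the outside of the cell. Some relatives, Car8 among them, have lost a zinc-binding residue that catalysis needs.

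Promoter windows were held in the RefSeq table used here (GRCm38.p6) for only 2 of the 6 genes, Car5a and Car14, and both are shown. Each window covers the 250 bases before the RefSeq start and is written 5′ to 3′ on the strand of the gene, which is the minus strand in both. It spans chr8:121944913-121945162 for Car5a and chr3:95904686-95904935 for Car14. Capitals mark the longest run of letters that the windows share on the strand of the gene.
Car5a: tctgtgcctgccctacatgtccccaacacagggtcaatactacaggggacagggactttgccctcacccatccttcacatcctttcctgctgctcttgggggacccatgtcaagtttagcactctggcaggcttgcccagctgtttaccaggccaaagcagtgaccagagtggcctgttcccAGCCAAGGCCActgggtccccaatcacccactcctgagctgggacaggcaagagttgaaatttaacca
Car14: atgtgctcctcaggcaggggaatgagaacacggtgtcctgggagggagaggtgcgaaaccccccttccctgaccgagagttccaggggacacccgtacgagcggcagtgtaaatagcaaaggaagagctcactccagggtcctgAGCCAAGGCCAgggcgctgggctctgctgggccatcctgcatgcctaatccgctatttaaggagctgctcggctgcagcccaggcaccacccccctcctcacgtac
The shared run, AGCCAAGGCCA, has 11 bases and begins 68 bases before the start of Car5a and 106 bases before that of Car14. It was singled out after the sequences were seen, and 22 of the 32851 windows of this length hold it on either strand (0.067%). This share does not give how often 2 windows have some run of 11 bases in common, which was not counted. The core of sites bound by nuclear receptors is AGGTCA or GGGTCA. The Car5a window held GGGTCA once, on the strand printed and beginning 220 bases before the start, and the Car14 window held it on neither strand. The letters AGGTCA were in neither window on either strand, nor were TAGGTCA, with the T that ROR proteins prefer before the core, or a direct repeat of AGGTCA with a spacer of 1 base. On either strand, 14.02% of all windows of the table held AGGTCA, 11.65% GGGTCA, 2.234% TAGGTCA and 0.03348% the repeat, the last 2 being contained in the count of AGGTCA. The search for GGGTCA was added after the sequences were seen. GC content was 56% in the Car5a window and 62% in the Car14 window.

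The levels of the 6 genes spanned 3 orders of magnitude. In FPKM, which is scaled per length and so allows genes to be compared, Car3 came first in every library, followed by Car5a, then by Car14 and Car8, then by Car1 and last by Car2. The lowest library of Car3 lay far above the highest of Car5a, and the ranges of Car5a and Car14, of Car8 and Car1, and of Car1 and Car2 did not overlap either. Only Car14 and Car8 did not separate, at 16.3 to 32.3 and 16.2 to 28.6 FPKM. Car14 was above Car8 in 6 libraries and below it in both LKO-labelled libraries on CD. Rescaling the FPKM of each library to the same sum cannot alter the order within a library, but it can alter the ranges over libraries. As a share of the summed FPKM, the lowest library of Car5a (0.00345%) lay below the highest of Car14 (0.00428%). Car3 alone made up 87.0% to 95.2% of the FPKM summed over the 16 genes of the family, and its rank among all genes in a library was between 45 and 89.

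**Figure D1:**
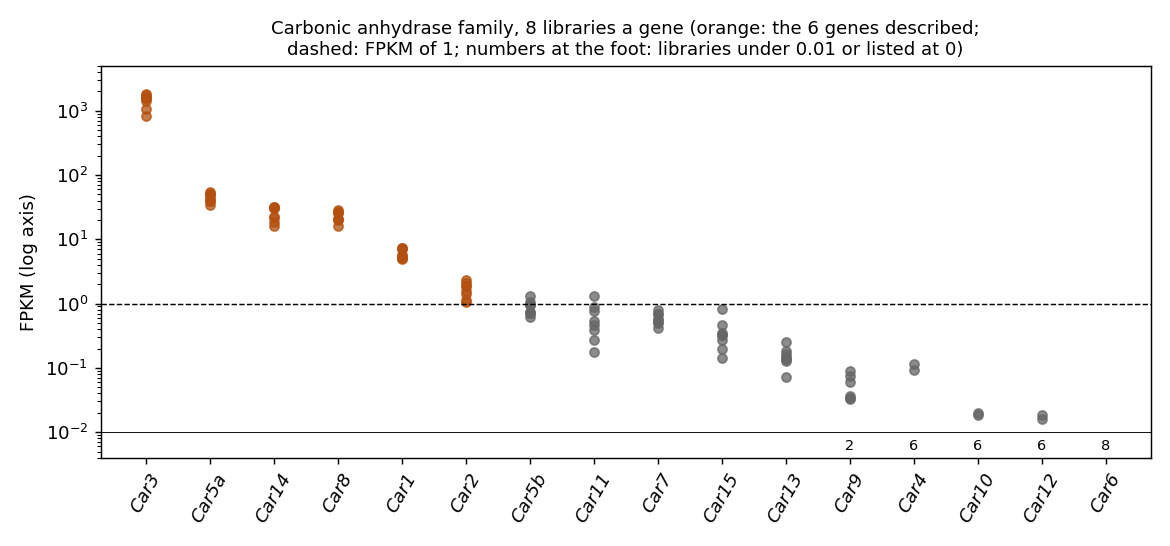
FPKM (log axis) of the 16 carbonic anhydrase family genes, with 1 point for each of the 8 libraries. Orange points are the 6 genes described, with Car3 between 825 and 1823 FPKM and Car2 between 1.05 and 2.32, while gray points are the other 10 genes, of which Car5b and Car11 reach above the dashed line at 1 FPKM in 2 libraries and 1 library.

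Rora, the targeted gene, was read beside the labels. It was at 8.85 and 8.59 FPKM in the f/f-labelled and 7.96 and 8.18 in the LKO-labelled libraries on CD, against 7.56 and 7.86 and 7.30 and 8.02 on HFD. The genotypes separated on CD by a log2 fold change of −0.10 (adjusted p = 0.61 from limma) and overlapped on HFD at 0.01 (adjusted p = 0.97). The FPKM covers the whole gene and not the floxed exons alone, so that it cannot test the labels. The study reported that Rora mRNA and RORα protein were depleted in liver and primary hepatocytes of its LKO mice. Libraries are named by their labels below, and each direction between genotypes rests on the labels. Each library held 10587 to 10706 genes above 1 FPKM, and no read counts were used here, so that the depth behind each value is unknown from the table. Of 7 hepatocyte markers found in the table and tested, Apoa1 lay between 4407 and 6290 FPKM, Ttr between 3994 and 4541, Cps1 between 455 and 793 and Tat between 250.4 and 1036. With diet averaged over the labels, Tat, a tyrosine aminotransferase, fell by 1.14 on the log2 scale (adjusted p = 0.0061 from limma), and it fell under each scaling tried. The calls of the other markers depended on the scaling, since Ttr and Hnf4a passed higher after quantile normalization (0.39 and 0.28) but not with median centring or no normalization, under which Cps1 and Serpina1a passed lower. Alb was listed at 0 in 4 libraries and at 29902 to 30888 FPKM in the other 4. The zeros were in LKO-labelled replicate 1 on CD, f/f-labelled replicate 2 on HFD and both LKO-labelled libraries on HFD. Apoa1 was at 4407 to 5084 FPKM in those libraries. The cause of the zeros was not tested, and no difference between groups is read from Alb. The f/f-labelled replicate 2 on CD stood apart by 1 gene without a symbol (ENSMUSG00000093077), which took 18.7% of its summed FPKM.

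Car3 encodes the abundant cytosolic enzyme of muscle, adipose tissue and rodent liver, which hydrates carbon dioxide slowly and is known for its reactive thiol groups. The gene (ENSMUSG00000027559) occupies bases 14863512 to 14872523 of chromosome 3, on the plus strand (GRCm38, as for all positions below). On CD it was at 1559 and 1581 FPKM in the f/f-labelled libraries and at 1823 and 1561 in the LKO-labelled libraries. On HFD it was at 1054 and 825 FPKM in the f/f-labelled libraries and at 1412 and 1746 in the LKO-labelled libraries. Both f/f-labelled libraries on HFD lay below the other 6 libraries, which shared 1 range between 1412 and 1823 FPKM. The group means were 1570 ± 15.8 and 1692 ± 186 on CD and 939 ± 162 and 1579 ± 236 on HFD (f/f-labelled, then LKO-labelled, SD, n = 2 libraries each).

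The HFD-fed LKO-labelled mean of Car3 was thus 1.68 times the HFD-fed f/f-labelled mean. On the quantile-normalized log2(FPKM + 1) scale, on which all fold changes below are given unless said otherwise, this difference was 0.93 (standard error 0.12, 95% interval 0.65 to 1.21, unadjusted p = 0.00011, adjusted p = 0.107 from limma). On CD the genotypes overlapped and differed by 0.03 (standard error 0.12, adjusted p = 0.93). The effect of the genotype label differed between the diets by 0.89 (standard error 0.16, unadjusted p = 0.00109, adjusted p = 0.42). None of these passed the threshold of 0.05 once adjusted over all 11634 genes tested. In whole liver, fewer cells that express a gene and less of its RNA per cell cannot be told apart.

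Read along the diet, the log2 fold change of Car3 in f/f-labelled livers was −0.60 (standard error 0.12, adjusted p = 0.065), with a ratio of mean FPKM of 0.598 and no overlap. This comparison shares the HFD-fed f/f-labelled libraries with the genotype comparison on HFD, so that the 2 values are not independent. In the LKO-labelled livers the direction depended on the scaling. It was 0.29 (adjusted p = 0.21) after quantile normalization, −0.10 with no normalization and −0.076 with each library centred on its median, and the deposited FPKM overlapped with a ratio of means of 0.933. The higher Car3 of the LKO-labelled livers on HFD did not change direction under these scalings, which gave 0.75 and 0.76.

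**Figure D2:**
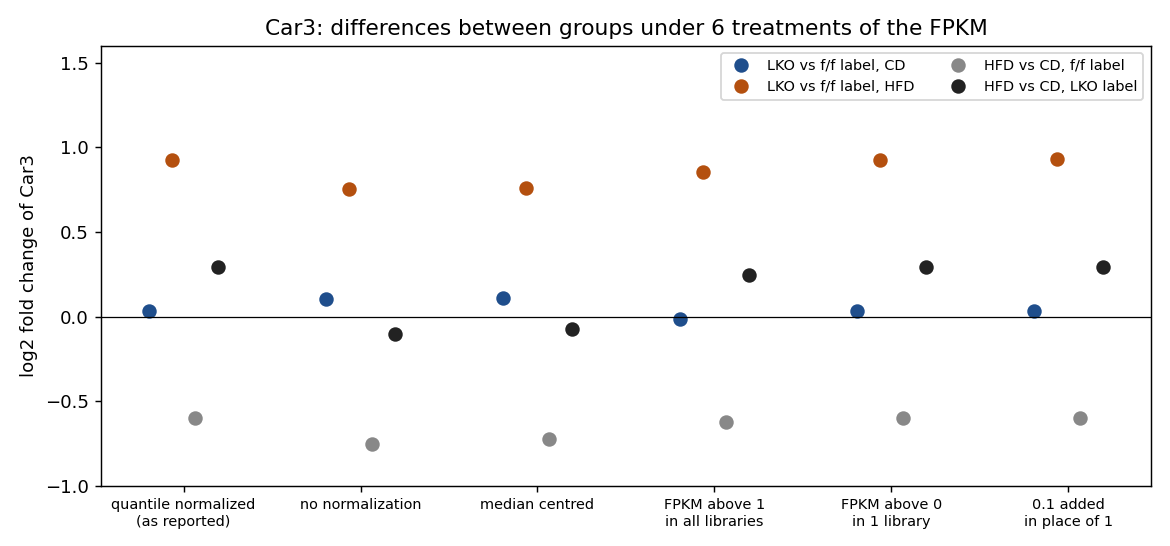
Log2 fold change of Car3 (vertical axis) under 6 treatments of the FPKM, with 1 color for each of 4 comparisons between groups of 2 libraries. The LKO-labelled against f/f-labelled difference on HFD (orange) stays between 0.75 and 0.93, while the diet difference in LKO-labelled livers (black) is at 0.29 after quantile normalization and below 0 with no normalization or median centring.

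Car1 and Car2 encode the fast cytosolic enzymes best known from red cells, and both are also made in other tissues. They sit with Car3 and Car13 in a cluster on chromosome 3 between 14641727 and 14900770, in the order Car13, Car1, Car3 and Car2. Car1 (ENSMUSG00000027556, minus strand, 14766216 to 14808368) was at 5.63 and 5.16 FPKM in the f/f-labelled and 5.06 and 5.53 in the LKO-labelled libraries on CD. On HFD it was at 4.91 and 7.32 in the f/f-labelled and 6.94 and 7.39 in the LKO-labelled libraries. Only the LKO-labelled livers separated by diet, at a log2 fold change of 0.41 (standard error 0.16, adjusted p = 0.21), and the f/f-labelled libraries on HFD lay on either side of all CD-fed libraries. Averaged over the labels, the diet difference of Car1 was 0.28 (adjusted p = 0.165 from limma), and the diets overlapped. With 1 library left out it was 0.15 to 0.41, the highest without the f/f-labelled replicate 1 on HFD.

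Car2 (ENSMUSG00000027562, plus strand, 14886273 to 14900770) was the lowest of the 6. On CD it was at 1.12 and 2.09 FPKM in the f/f-labelled and 2.32 and 1.86 in the LKO-labelled libraries, and on HFD at 1.05 and 1.42 against 1.56 and 1.88. Its genotype labels were separated on HFD but not on CD, and differed there by a log2 fold change of 0.27 (95% interval −0.21 to 0.76, adjusted p = 0.72), and no comparison of Car2 reached an unadjusted p under 0.05. The library with the least Car2 was also the one with the least Car1, the f/f-labelled replicate 1 on HFD.

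Markers of red cells moved between these libraries too. The summed FPKM of the 9 red cell markers found was 85.9 to 420 and 247 to 502 on CD and 65.9 to 228 and 121 to 198 on HFD (f/f-labelled, then LKO-labelled). Of these, 5 passed the filter on low values, led by Hbb-bs, a beta globin at 14.2 to 188 FPKM, and Hba-a1, an alpha globin at 14.8 to 147. The membrane and skeleton genes of red cells were at or near 0, with Rhag listed at 0 in all libraries and Slc4a1 no higher than 0.062. The f/f-labelled replicate 1 on HFD, lowest in Car1 and Car2, also had the least Hbb-bs. Alas2, the first enzyme of heme synthesis in red cells, was the one of the 5 that passed with diet, at 39.3 to 51.4 FPKM on CD and 25.8 to 33.6 on HFD. It fell by 0.56 on the log2 scale averaged over the labels (adjusted p = 0.0094 from limma), where 4.86% of all genes fell. In LKO-labelled livers, where 3.02% of all genes passed, it fell by 0.66 (adjusted p = 0.031). Alas2 did not follow the globins in every library. The f/f-labelled libraries on CD were at 41.0 and 39.3 FPKM for Alas2 but at 19.0 and 149 for Hbb-bs. Within the LKO-labelled livers, however, Hbb-bs was at 78.1 and 188 on CD and at 66.3 and 37.4 on HFD, opposite in direction to Car1. The part of red cell RNA in the levels of Car1 and Car2 was not tested.

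Car5a encodes the carbonic anhydrase of the mitochondrial matrix, made mainly in liver. It lies on the minus strand of chromosome 8 (ENSMUSG00000025317, 121916126 to 121944904). On CD it was at 40.0 and 33.9 FPKM in the f/f-labelled and 42.9 and 39.8 in the LKO-labelled libraries, and on HFD at 50.0 and 54.0 against 46.5 and 50.6. Every HFD-fed library lay above every CD-fed library. Averaged over the genotype labels, the log2 fold change with diet was 0.40 (standard error 0.07, adjusted p = 0.0175). With 1 library left out the call held in 2 of 8 fits, those without replicate 1 of either CD-fed group, and the adjusted p was between 0.0348 and 0.0739. Taken apart, it was 0.53 in f/f-labelled (adjusted p = 0.056) and 0.26 in LKO-labelled livers (adjusted p = 0.17), and the difference between these was −0.27 (95% interval −0.58 to 0.05, adjusted p = 0.64). The genotype labels overlapped on HFD. Of the 1249 bases of its reference transcript in GENCODE, 314 also lie in exons of BC048644 on the other strand. The library kit does not mark strand, so that reads from these bases cannot be assigned, and BC048644 itself averaged 0.86 FPKM.

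Car14 encodes a carbonic anhydrase that spans the plasma membrane with its active site outside the cell. Its gene (ENSMUSG00000038526) is on the minus strand of chromosome 3 from 95897768 to 95904691, far from the cluster. The FPKM on CD was 22.0 and 22.1 in the f/f-labelled and 18.7 and 16.3 in the LKO-labelled libraries. On HFD it was 32.3 and 32.0 in the f/f-labelled and 30.5 and 30.6 in the LKO-labelled libraries. The diets did not overlap, and under each diet the LKO-labelled libraries lay below the f/f-labelled ones. Car14 was the only one of the 6 to pass the adjusted threshold with diet under each label, at a log2 fold change of 0.54 in f/f-labelled (standard error 0.07, adjusted p = 0.0373) and 0.81 in LKO-labelled livers (standard error 0.07, adjusted p = 0.0130). Averaged over the labels it rose by 0.68 (standard error 0.05, adjusted p = 0.00313), and this call held in all 8 fits with 1 library left out. The call in f/f-labelled livers held in 0 of these 8 fits (adjusted p between 0.0613 and 0.198), and was also lost without the mean-variance trend, with a filter at FPKM above 0, with only the 4 libraries compared and with the replicate block (adjusted p = 0.0546). That in LKO-labelled livers held in 6 of the 8, being lost without either HFD-fed LKO-labelled library, and was lost with only the 4 libraries compared (adjusted p = 0.110).

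The genotype difference of Car14 was −0.31 on CD (standard error 0.07, unadjusted p = 0.0046, adjusted p = 0.22) and −0.04 on HFD (95% interval −0.21 to 0.14, adjusted p = 0.91). The change between the diets was 0.27 (unadjusted p = 0.0385, adjusted p = 0.58). Of the 1709 bases of its reference transcript in GENCODE, 445 (26.0%) lie in exons of Aph1a on the other strand. Aph1a, a subunit of gamma-secretase, averaged 32.3 FPKM, which is close to Car14 itself, and was higher on HFD by 0.31 averaged over the labels (adjusted p = 0.027). Reads of the genes cannot be told apart where they overlap, and the part of Aph1a in the level of Car14 was not tested. The difference of Aph1a with diet was 0.28 in f/f-labelled and 0.35 in LKO-labelled livers, and its genotype difference on CD was −0.05. The part of Aph1a in the differences of Car14 was not tested either.

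Car8 encodes the member without catalytic activity, known to bind the inositol trisphosphate receptor that releases calcium. The gene (ENSMUSG00000041261) lies on the minus strand of chromosome 4 from 8143362 to 8239041. On CD it was at 20.6 and 16.2 FPKM in the f/f-labelled and 21.0 and 19.6 in the LKO-labelled libraries, and on HFD at 28.6 and 26.3 against 25.2 and 26.1. As with Car5a, every HFD-fed library was above every CD-fed library. The log2 fold change with diet was 0.48 averaged over the labels (standard error 0.08, adjusted p = 0.0176), made up of 0.60 in f/f-labelled (adjusted p = 0.062) and 0.35 in LKO-labelled livers (adjusted p = 0.14). With 1 library left out the averaged call held in 3 of 8 fits (adjusted p between 0.0231 and 0.0739), being lost without CD-fed LKO-labelled replicate 2 or any HFD-fed library. The genotype difference was 0.17 on CD (adjusted p = 0.56) and −0.07 on HFD (adjusted p = 0.87).

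**Figure D3:**
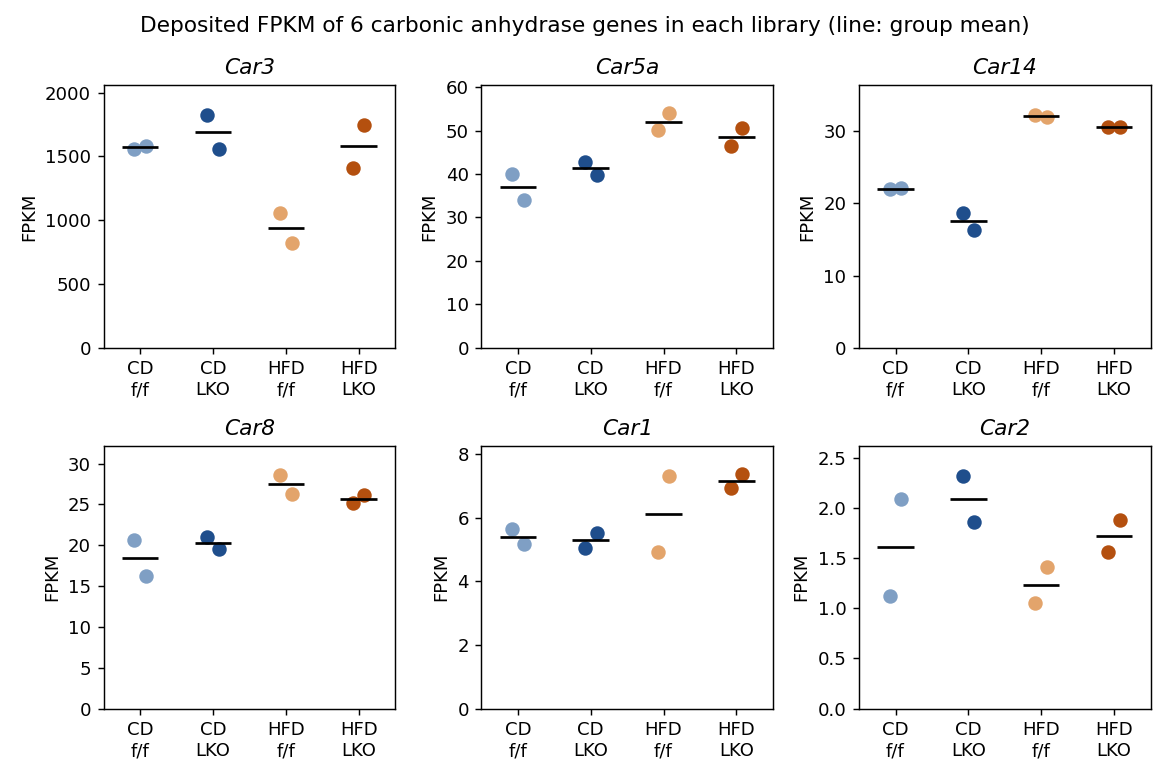
Deposited FPKM of the 6 genes (vertical axes from 0) in the 4 groups, with 1 point for each library and a line at the mean of the 2 libraries of a group. The f/f-labelled HFD-fed points of Car3, at 1054 and 825, lie below all its other points, and the HFD-fed points of Car5a, Car14 and Car8 all lie above their CD-fed points.

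Counted over the 6 genes, 0 passed an adjusted p of 0.05 between the genotype labels on HFD, where 0.043% of all tested genes did, and 0 on CD, where 0.0172% did. The count was also 0 for the change of the genotype difference between diets (0.0344% of all genes) and for the genotype averaged over the diets (0.103%). With diet, 1 passed in f/f-labelled livers (1.33% of all genes), 1 in LKO-labelled livers (3.02%) and 3 averaged over the labels (9.89%). At an unadjusted p under 0.05 the genotype counts were 1 on HFD (Car3, 9.58% of all genes) and 1 on CD (Car14, 12.3%). They were 2 for the change between diets (Car3 and Car14, 8.35%) and 2 for the average over diets (Car3 and Car14, 13.5%). For diet they were 4 in f/f-labelled (19.2%), 5 in LKO-labelled livers (21.3%) and 4 averaged (27.9%). Groups that did not overlap on the normalized scale were found for 4 of the 6 genes between genotypes on HFD, against 42.2% of all genes, for 2 on CD, against 43%, and for 0 over both diets, against 4.84%. Between diets they were found for 4 in f/f-labelled livers, against 50.3%, for 5 in LKO-labelled livers, against 52.9%, and for 3 over both labels, against 16.7%. Because the genes were picked with these values known, nothing is read from the shares.

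**Figure D4:**
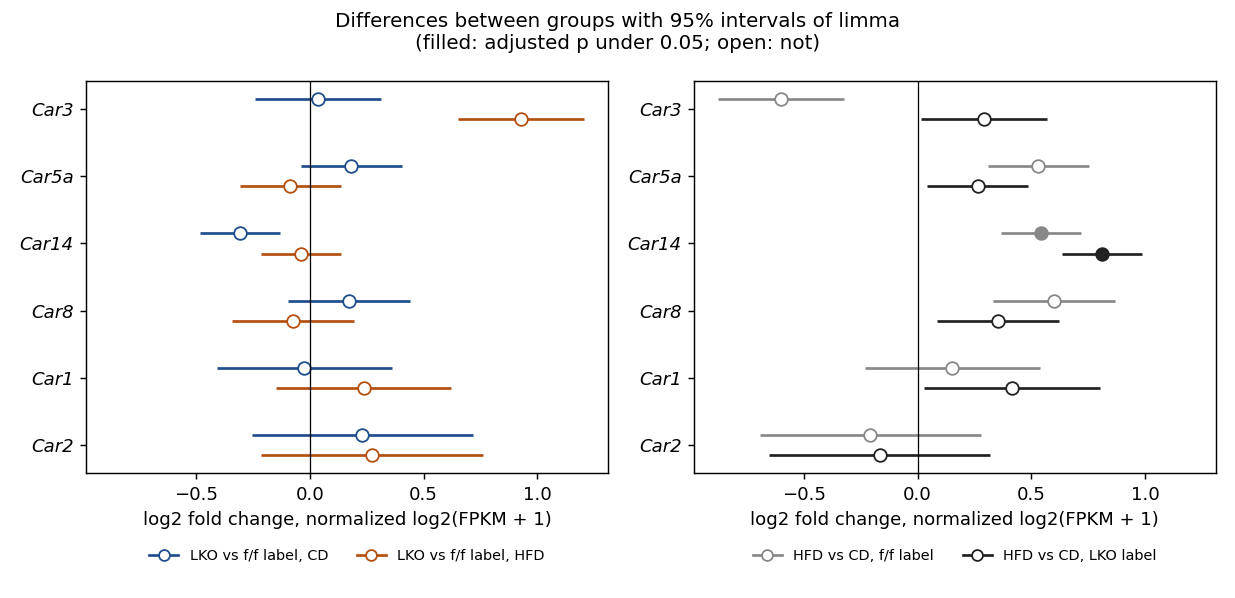
Log2 fold changes of the 6 genes with their 95% intervals from limma, between genotype labels on each diet (left) and between diets under each label (right). Filled points, with an adjusted p under 0.05, are Car14 with diet under either label (0.54 and 0.81), and the interval of Car3 between genotype labels on HFD runs from 0.65 to 1.21.

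The 6 genes differed in how much they varied. The highest library was 2.21 times the lowest for Car3, 2.20 times for Car2 and 1.97 times for Car14, but 1.76 times for Car8, 1.59 times for Car5a and 1.51 times for Car1. Over the 8 libraries, which share their diet groups, Pearson's r of the normalized values was 0.96 between Car5a and Car8, 0.80 between Car14 and Car8 and 0.77 between Car14 and Car5a. It was between −0.31 and −0.25 for Car3 with each of these 3 genes, and 0.49 for Car3 with Car2. These correlations over 8 libraries from 4 groups are descriptions only.

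Among all tested genes, those whose normalized values followed each of the 6 most closely over the 8 libraries were listed by Pearson's r. Nearest to Car3 were Sgsm2 (0.97), Shtn1 (0.94) and Gnb1 (0.94), the last a subunit of heterotrimeric G proteins. For Car14 they included Krcc1 (0.99) and Apoh (0.98), and for Car5a they were Tmem38b (0.98), Ino80b (0.98) and Rab11b (0.98). Car8 was followed by Ivd, an enzyme of leucine breakdown (0.98), Prps2 (0.98) and Bcl9l (0.98). Ftl1 (0.98), the ferritin light chain, Sox6os (0.98) and Apoc3 (0.97) were nearest to Car1, and Uap1l1 (0.95), Tm7sf3 (0.95) and Ctsc (0.94) to Car2. With 11634 candidates and 8 libraries, high values of r arise for any gene, and no p is given.

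The other 10 genes of the family were low in these livers. Car5b, the second mitochondrial enzyme, was at 0.63 to 1.30 FPKM and passed 1 in 2 libraries. Car11, a relative without catalytic activity, was at 0.18 to 1.33 and passed 1 in 1 library. Car11 was at 0.27, 0.39, 0.18 and 0.47 on CD and at 1.33, 0.88, 0.54 and 0.78 on HFD (f/f-labelled, then LKO-labelled). The filter on low values kept it only through the f/f-labelled replicate 1 on HFD, so no fold change is given. Car4, Car7, Car9, Car10, Car12, Car13 and Car15 were below 1 in all libraries, and Car6, the secreted enzyme of saliva, was listed at 0 in each.

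All 9 enzymes in a list of bicarbonate users were tested. Between the genotype labels none passed an adjusted p of 0.05, and the list's median log2 fold change was 0.045 on HFD and 0.00066 on CD, beside −0.00067 and −0.00085 over all genes. With diet, averaged over the labels, 1 rose and 2 fell, where 5.04% of all genes rose and 4.86% fell. Pcx, the pyruvate carboxylase of the mitochondrial matrix, where Car5a works, was at 96.0 to 118 FPKM on CD and 130 to 151 on HFD and rose by 0.50 (standard error 0.07, adjusted p = 0.0090). Acaca and Acacb, the acetyl-CoA carboxylases, had log2 fold changes of −0.89 (adjusted p = 0.0142) and −1.24 (adjusted p = 0.0153). Acaca also passed in LKO-labelled livers alone (−1.03, adjusted p = 0.0471). Cps1, which makes carbamoyl phosphate for the urea cycle in the same compartment as Car5a and was the most abundant of the list, was at 669 to 793 FPKM on CD and 455 to 666 on HFD and did not pass (log2 fold change −0.30, adjusted p = 0.067). Its call rested on the scaling, since Cps1 passed at −0.46 with no normalization (adjusted p = 0.0066) and at −0.43 with median centring (adjusted p = 0.0097). Pccb and Pcca, the subunits of propionyl-CoA carboxylase, averaged 87.2 and 46.6 FPKM and passed no adjusted test.

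Of 16 bicarbonate and proton transporters, 7 passed the filter on low values and none passed an adjusted p of 0.05 in any of the 7 comparisons after quantile normalization. The most abundant were Slc26a1, a sulfate and bicarbonate exchanger at 62.1 to 82.1 FPKM, and Slc4a4, the sodium bicarbonate cotransporter at 11.3 to 23.6. Slc4a4 was at 13.9 and 16.4 FPKM in f/f-labelled and 22.2 and 23.6 in LKO-labelled livers on HFD, with no overlap between them. Of the 7 tested transporters, 6 had no overlap between the labels on HFD, beside 42.2% of all genes, with 3 of the 7 higher and 4 lower in LKO-labelled livers by the fitted difference and a median of −0.094. Slc26a1 lay the other way from Slc4a4, at 72.0 and 76.1 FPKM in f/f-labelled and 66.6 and 62.1 in LKO-labelled livers. Slc9a8, a sodium and proton exchanger, and Slc16a1, a monocarboxylate transporter, averaged 10.9 and 10.5 FPKM, and Slc16a1 passed with diet averaged over the labels with no normalization (adjusted p = 0.0494) but not with median centring (adjusted p = 0.062). Slc9a2 and Slc9a3 were listed at 0 in all libraries.

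Car3 is known to be stronger around the central vein, and lists of genes that mark the zones of the lobule were therefore read beside it. Of 12 pericentral genes tested, 4 rose and 1 fell with diet averaged over the labels, where 5.04% of all genes rose and 4.86% fell. The 4 were Cyp2e1, an alcohol-oxidizing cytochrome (0.92, adjusted p = 0.00313), Glul, glutamine synthetase (0.23, adjusted p = 0.038), Gulo, of vitamin C synthesis (0.29, adjusted p = 0.035), and Lgr5, a receptor of Wnt signaling (0.35, adjusted p = 0.0496), and Cyp1a2 was the one that fell (−0.73, adjusted p = 0.032). The median of the 12 was 0.26, beside 0.01 over all genes. Under the labels apart it was 0.042 in f/f-labelled livers, where only Cyp2e1 passed, and 0.33 in LKO-labelled livers, where Cyp2e1 and Lgr5 passed. The f/f-labelled call rested on the scaling, since no gene passed there with median centring (median −0.032) or no normalization (median −0.058). In LKO-labelled livers Cyp2e1 and Lgr5 passed under both. The difference of the diet effect between the labels was above 0 for 10 of the 12 genes, with a median of 0.27 beside 0.0054 over all genes. That median was 0.199 with median centring and 0.198 with no normalization. After quantile normalization the difference ran from −0.76 to 0.86. Of the 12, 5 had an unadjusted p under 0.05 (8.35% of all genes), 4 of them above 0 and 1 below. None had an adjusted p under 0.05. Lgr5 was at −0.083 in f/f-labelled livers (adjusted p = 0.76) and rose by 0.78 in LKO-labelled livers (adjusted p = 0.030), a difference of 0.86 (unadjusted p = 0.00155, adjusted p = 0.48). Among 11 periportal genes, Hsd17b13, a protein of lipid droplets, rose (0.29, adjusted p = 0.0175). The 4 that fell were Cdh1, or E-cadherin (−0.97, adjusted p = 0.0088), Cyp2f2 (−0.48, adjusted p = 0.045), Pck1, of gluconeogenesis (−0.67, adjusted p = 0.048), and Sds, serine dehydratase (−0.67, adjusted p = 0.0061), and the list median was −0.29. The abundant Aldh1a1 and Rgn of the pericentral list averaged 681 and 641 FPKM, and Ass1 and Arg1 of the periportal list, both of the urea cycle, 1349 and 644, and these passed no adjusted test with diet averaged over the labels. With no normalization or median centring, 1 pericentral gene rose (Cyp2e1) and 1 fell (Cyp1a2), the list medians being 0.12 and 0.15, while 5 periportal genes fell and 0 rose, Gls2 passing in place of Hsd17b13. Between the genotype labels, no gene of either list passed an adjusted p of 0.05 on HFD or CD. The median of the pericentral list was 0.15 on HFD and −0.13 on CD, and that of the periportal list −0.09 and 0.03.

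Markers of other cells that make carbonic anhydrases were read for each group. Skeletal muscle and adipose tissue are both rich in Car3. Of 10 muscle markers, 0 passed the filter, their sum was 0.20 to 1.05 FPKM over all libraries, Acta1, Pvalb and Tnnt3 were listed at 0 in each, and the highest were Mylpf, up to 0.96, and Tnnc2, up to 0.59. The sum of 9 adipocyte markers was 17.6 to 18.3 and 25.2 to 27.9 FPKM on CD and 20.3 to 21.8 and 26.5 to 26.8 on HFD (f/f-labelled, then LKO-labelled). That sum was higher in the LKO-labelled libraries on both diets, but its members did not all move with it. It was led by Fabp4 and Lipe, which averaged 8.21 and 7.12 FPKM. Lipe was at 6.72 and 5.53 FPKM in f/f-labelled and 8.35 and 11.8 in LKO-labelled livers on CD. On HFD it was at 6.34 and 6.09 against 5.68 and 6.46. Of the 4 markers that were tested, Fabp4, a fatty acid binding protein, rose with diet averaged over the labels (0.37, adjusted p = 0.033). Adipoq was no higher than 0.38 and was listed at 0 in both LKO-labelled libraries on HFD, and Plin1 and Lep were no higher than 0.054 and 0.023. Cfd, adipsin, was at 0.49 and 1.87 in f/f-labelled and 5.45 and 5.29 in LKO-labelled livers on HFD.

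The sum of 8 Kupffer cell and macrophage markers was 96.9 to 124 and 90.4 to 96.6 FPKM on CD and 71.7 to 89.5 and 90.6 to 125 on HFD (f/f-labelled, then LKO-labelled). It was thus lowest in the f/f-labelled livers on HFD, the group in which Car3 was lowest. On HFD all 8 markers were higher in the LKO-labelled livers by the group means, 3 with an unadjusted p under 0.05 (9.58% of all genes) and 0 with an adjusted p under 0.05, at a median of 0.39 beside −0.00067 over all genes. On CD, 7 of the 8 were lower in the LKO-labelled livers, at a median of −0.29 beside −0.00085 over all genes. Car3 differed by 0.03 between the labels on that diet. The most abundant of these markers were Clec4f and Cd5l, which averaged 27.2 and 24.3 FPKM. Cholangiocyte markers summed to 17.9 to 31.6 FPKM over all libraries, nearly all of it Spp1, with Sox9 at 0.86 to 1.71. The part of adipocyte, macrophage and bile duct RNA in the differences of the 6 genes was not tested.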

How the data were processed

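Per the labels and the study's methods, polyadenylated RNA was prepared with the TruSeq RNA kit v2 and sequenced in pairs. The authors removed adapters and trimmed reads with cutadapt 1.0, aligned them to GRCm38 with TopHat2 2.0.7 and estimated expression with Cufflinks (version not given in the sources used here). The deposited values are FPKM, not on a log scale, in 1 table of 38283 genes, of which 36341 were matched to a symbol. The 11634 genes that exceeded an FPKM of 1 in any library were retained. A pseudocount of 1 was added, which understates changes of low genes, and the log2 values were quantile normalized. limma 3.58.1 in R 4.3.3 fitted 4 group means to the 8 libraries with a mean-variance trend (4 residual degrees of freedom, 2.80 added by moderation), with Benjamini-Hochberg adjustment within each of 7 comparisons. The permutation procedure of the study was not repeated. The libraries of a group are pools of different mice.

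The 6 genes and all gene lists were chosen with earlier results of these data known. Named besides the 6 are Rora, family genes above 1 FPKM, list genes past the adjusted threshold or among the 4 most abundant of their list (2 for marker lists), markers at 0 throughout, and the 3 genes of highest r with each of the 6. Some genes that this rule names are not reported here. Other genes were named after their values were seen. Same-numbered libraries come from different mice, and the number was used as a block only as an alternative. Other alternatives were the scaling, the pseudocount, the filter, the trend, the libraries in the fit and each library left out. The steps were tested on simulated data. Positions and exons are those of GENCODE on GRCm38. Protein sequences were not used here.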

Additional observations from a re-analysis of the deposited data

Results flagged for a closer look

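Car3 was marked because its diet difference ran in opposite directions under the genotype labels on the normalized scale, with both HFD-fed libraries below both CD-fed libraries in f/f-labelled livers and above them in LKO-labelled livers. The log2 fold changes differed by 0.89 (standard error 0.16, adjusted p = 0.42 from limma). The lower level in f/f-labelled livers was seen under every scaling tried, whereas in LKO-labelled livers the difference was 0.29 after quantile normalization, −0.10 with no normalization and −0.076 with median centring.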

How the results depend on the processing

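With 2 libraries per group and no depth in the table, differences within the spread of 2 pools could not be resolved. Across the comparisons, 306 of the results under other settings kept direction and side of the threshold, 5 were weaker, 4 stronger and 3 reversed, and with 1 library left out the numbers were 300, 21, 1 and 14. With diet in f/f-labelled livers, where 1 of the 6 genes passed, 2 did so with a pseudocount of 0.1 and 4 with FPKM above 1 in all libraries, against 0 with FPKM above 0 in at least 1 library, 0 without the trend, 0 with only the 4 libraries compared and 0 with any 1 library left out. The fit with the replicate number as a block also gave 0 there, with Car14 at an adjusted p of 0.0546, and changed no other count of the 6 genes. The numbers do not pair the libraries, since deviations of same-numbered libraries correlated at −0.0037 to 0.149 over the 6 pairs of groups and at −0.061 to 0.036 without genes listed at 0. With diet in LKO-labelled livers the count of 1 became 0 with only the 4 libraries compared and was 0 to 1 with 1 library left out, the 0 arising without either HFD-fed LKO-labelled library. Averaged over the labels, 3 became 1 to 3, the 1 arising without CD-fed LKO-labelled replicate 2, HFD-fed f/f-labelled replicate 2 or either HFD-fed LKO-labelled replicate. Fewer libraries were fitted in these cases.

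Car3 with diet in LKO-labelled livers reversed to −0.10 with no normalization and −0.076 with median centring, and Car3 between genotypes on CD to −0.015 with FPKM above 1 in all libraries. With 1 library left out, log2 fold changes that crossed 0 ran from −0.022 to 0.50 for Car1 between genotypes on HFD, −0.083 to 0.035 for Car1, −0.039 to 0.50 for Car2 and −0.0070 to 0.076 for Car3 between genotypes on CD. The range was −0.23 to 0.31 for the change of Car2 between diets, −0.10 to 0.41 for Car1 and −0.48 to 0.062 for Car2 with diet in f/f-labelled livers, and −0.023 to 0.24 for Car1, −0.0027 to 0.10 for Car5a and −0.031 to 0.13 for Car8 between genotypes averaged over diets. The higher Car3 of LKO-labelled livers on HFD was 0.80 to 1.06 with 1 library left out and 0.75 to 0.93 under the other settings, with adjusted p between 0.08 and 0.43.

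The number of all genes called, 5 between genotypes on HFD, 2 on CD, 4 for the change between diets and 12 averaged, was 4 to 24, 0 to 10, 0 to 19 and 7 to 50 under the other settings. With diet, 155 in f/f-labelled livers became 5 to 323, 351 in LKO-labelled livers 0 to 570 and 1151 averaged 704 to 1304, and with 1 library left out 12 to 34, 19 to 79 and 335 to 728. The causes of these shifts were not tested.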
